A study of Mus musculus with 13 samples.

Results

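Reduced representation bisulfite sequencing, which reads cytosine methylation in fragments cut at the letters CCGG, gave read counts at CpG dinucleotides of mouse chromosomes 8 and 11. All CpGs of both chromosomes found in any of the 13 libraries were taken, which gave 188907 CpGs on chromosome 8 and 223504 on chromosome 11, out of 3338357 on the autosomes and X. The libraries came from 2 female induced pluripotent stem cell (iPSC) samples labelled XaXa (XaXa 7 and 8), 4 female iPSC samples labelled XO (XO 3, 5, 6 and 9), 3 male iPSC samples (male iPSC 1, 2 and 4) and 2 male mouse embryonic fibroblast (MEF) samples (MEF 4 and 5), with 1 SSEA1 negative and 1 SSEA1 positive sample of male cells on the way to iPSCs. XaXa denotes cells with both X chromosomes active and XO cells with a single X. The labels state no strain, age, passage number or reprogramming factors, and iPSCs were separated from feeder cells before DNA was isolated. The labels do not say whether libraries of a group came from separate cultures, so p-values may not measure the spread between cultures. They rest on the spread between libraries, pooled over groups, moderated across tiles and never set below read-counting error. Depth was reads over the autosomal total of the library, relative to the median of the other iPSC libraries (all 9 for MEF and SSEA1 libraries), and level was methylated reads as a percentage of all reads. The chromosomes were chosen by their read depth and methylation in these same libraries, so depth and the level of each chromosome or region are given as a description with no test. Tests are given for 1 kb tiles between labelled groups.

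Mouse pluripotent cells in culture are known to gain extra copies of chromosomes 8 and 11 more often than of most other chromosomes, and such cells can take over a culture. Read depth follows the number of DNA copies averaged over all cells of a sample, so a gain carried by some of the cells raises the ratio by less than a gain carried by all of them. CpG methylation is a repressive mark at promoters; it is low at CpG-dense promoters and high across most other CpGs, and the global level differs between cell states.

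Promoter sequences below show where CpGs on the regions of interest were read. Of 18 genes listed for both chromosomes, the RefSeq promoters of 10 could be matched to the deposited CpGs by their spacing and neighbouring bases, and 24 genes of a chromosome 11 segment described below were matched in the same way. Those shown hold at least 20 reads in every library and overlap no other RefSeq gene, with the addition of Zrsr1, an imprinted gene in an intron of Commd1, for its intermediate levels. Each is the 250 bases before the RefSeq start (GRCm38.p6), 5′ to 3′ on the gene's strand, with CpGs present in the deposited tables in capitals.
Rac3 (chr11:120721218-120721467, plus strand): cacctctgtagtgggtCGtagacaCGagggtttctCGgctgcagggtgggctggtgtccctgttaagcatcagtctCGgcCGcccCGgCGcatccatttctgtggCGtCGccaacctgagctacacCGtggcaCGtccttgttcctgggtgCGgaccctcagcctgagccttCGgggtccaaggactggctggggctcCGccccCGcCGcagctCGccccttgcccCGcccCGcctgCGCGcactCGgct
P4hb (chr11:120573254-120573503, minus strand): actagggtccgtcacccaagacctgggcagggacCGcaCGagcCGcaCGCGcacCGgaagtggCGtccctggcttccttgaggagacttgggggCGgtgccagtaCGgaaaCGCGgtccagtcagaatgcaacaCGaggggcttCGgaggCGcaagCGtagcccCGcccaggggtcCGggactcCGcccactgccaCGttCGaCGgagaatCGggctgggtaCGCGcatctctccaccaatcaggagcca
Socs3 (chr11:117969367-117969616, minus strand): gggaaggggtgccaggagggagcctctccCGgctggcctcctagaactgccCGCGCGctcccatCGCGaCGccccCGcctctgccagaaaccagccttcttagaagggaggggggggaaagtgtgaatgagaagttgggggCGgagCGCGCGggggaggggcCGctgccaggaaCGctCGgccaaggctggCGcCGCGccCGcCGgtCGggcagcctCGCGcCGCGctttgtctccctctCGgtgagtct
Grb10 (chr11:12037421-12037670, minus strand): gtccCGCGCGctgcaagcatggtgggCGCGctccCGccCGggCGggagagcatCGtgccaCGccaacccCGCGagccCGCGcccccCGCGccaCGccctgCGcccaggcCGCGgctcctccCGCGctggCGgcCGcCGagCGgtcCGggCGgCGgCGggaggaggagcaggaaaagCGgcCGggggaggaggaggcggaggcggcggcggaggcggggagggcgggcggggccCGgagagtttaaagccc
Zrsr1 (chr11:22971755-22972004, plus strand): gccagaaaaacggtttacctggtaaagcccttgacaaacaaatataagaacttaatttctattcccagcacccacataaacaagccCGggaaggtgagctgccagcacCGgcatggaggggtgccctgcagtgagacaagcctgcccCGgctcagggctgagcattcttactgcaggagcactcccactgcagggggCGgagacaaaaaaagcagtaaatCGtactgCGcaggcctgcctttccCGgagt
Junb (chr8:84978749-84978998, minus strand): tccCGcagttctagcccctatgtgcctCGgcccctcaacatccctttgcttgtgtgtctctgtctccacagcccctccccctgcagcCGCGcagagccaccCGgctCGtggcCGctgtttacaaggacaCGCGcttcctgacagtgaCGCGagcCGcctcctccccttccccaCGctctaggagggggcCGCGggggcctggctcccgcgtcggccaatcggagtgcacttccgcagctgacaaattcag
Of the 25 CpGs of the P4hb stretch 24 were read, and all 22 of the Rac3 and all 26 of the Socs3 stretch. The motif CCGG, its own reverse complement and so the same on both strands, occurred in these 250 bases 1 to 4 times, and in 47.1% of the 32851 RefSeq promoters of the same length it occurred at least once.

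Socs3, which encodes an inhibitor of cytokine signalling, had a methylation level of at most 4.17% in any library, and Junb, an AP-1 transcription factor gene, of at most 0.893%. P4hb, a protein disulfide isomerase gene, reached 2.94%, Rac3, a small GTPase gene, 7.91%, and the Grb10 promoter shown, of an imprinted growth regulator, 3.57%. These CpG-dense promoters were thus almost unmethylated in all 13 libraries. Zrsr1 stood apart from them. Its level over the 9 CpGs matched in the full RefSeq window, which runs past the start, was 20.8% and 9.12% in the XaXa libraries, 0%, 7.48%, 38.2% and 23.8% in the XO libraries (3, 5, 6 and 9), and 52.7%, 27.1% and 53.5% in the male iPSC libraries. The 3 XO libraries other than XO 6 and both XaXa libraries lay below all male iPSC libraries, and the XO libraries overlapped the XaXa ones. Depth set wide 95% Wilson intervals, which cover counting error only: 13.5% to 38.5% in XO 9 from 42 reads, and 0% to 2.91% in XO 3 from 128 reads. MEF 4 had 100% from only 6 reads and MEF 5 18.2% from 22 reads, too few to set beside the iPSC libraries.

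Which iPSC libraries carried extra reads on the chromosomes was asked first. Chromosome 11 of XO 6 had a relative depth of 1.247, the highest of the 19 autosomes of that library. Its other 17 autosomes lay between 0.941 and 1.06. Chromosome 8 of male iPSC 4 had a relative depth of 1.18, also the highest of its autosomes, with the others between 0.963 and 1.06. Chromosome 8 of XO 5 came to 1.09, the highest of its autosomes, and that of XO 3 to 0.942, second to chromosome 2. In XaXa 7, XO 3 and XO 9 chromosome 2 lay at 1.44 to 1.78 and most other autosomes below 1, while without very deep CpGs and matched for density chromosome 2 lay at 0.993 to 1.001 in these libraries. A second scale was therefore used, chosen after seeing the data, in which 1880 autosomal CpGs above 20 RPM (reads scaled to library size) in any library were left out (7.15% to 20.2% of reads) and depth was divided by that of CpGs of the same local density on the other autosomes. On this matched scale chromosome 11 of XO 6 came to 1.27 against 0.966 to 1.02 on its other autosomes, and chromosome 8 of male iPSC 4 to 1.19 against 0.982 to 1.03. Chromosome 8 ranked first also in XO 3, at 1.08 with the others from 0.954 to 1.04, and in XO 5, at 1.08 with the others from 0.967 to 1.02. Chromosome 8 of the remaining 6 iPSC libraries lay between 0.942 and 1.02, and chromosome 11 of the 8 iPSC libraries other than XO 6 between 0.971 and 1.03. Neither chromosome stood above the other autosomes in MEF or SSEA1 libraries, at 0.963 to 1.01 on the matched scale.

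**Figure D1:**
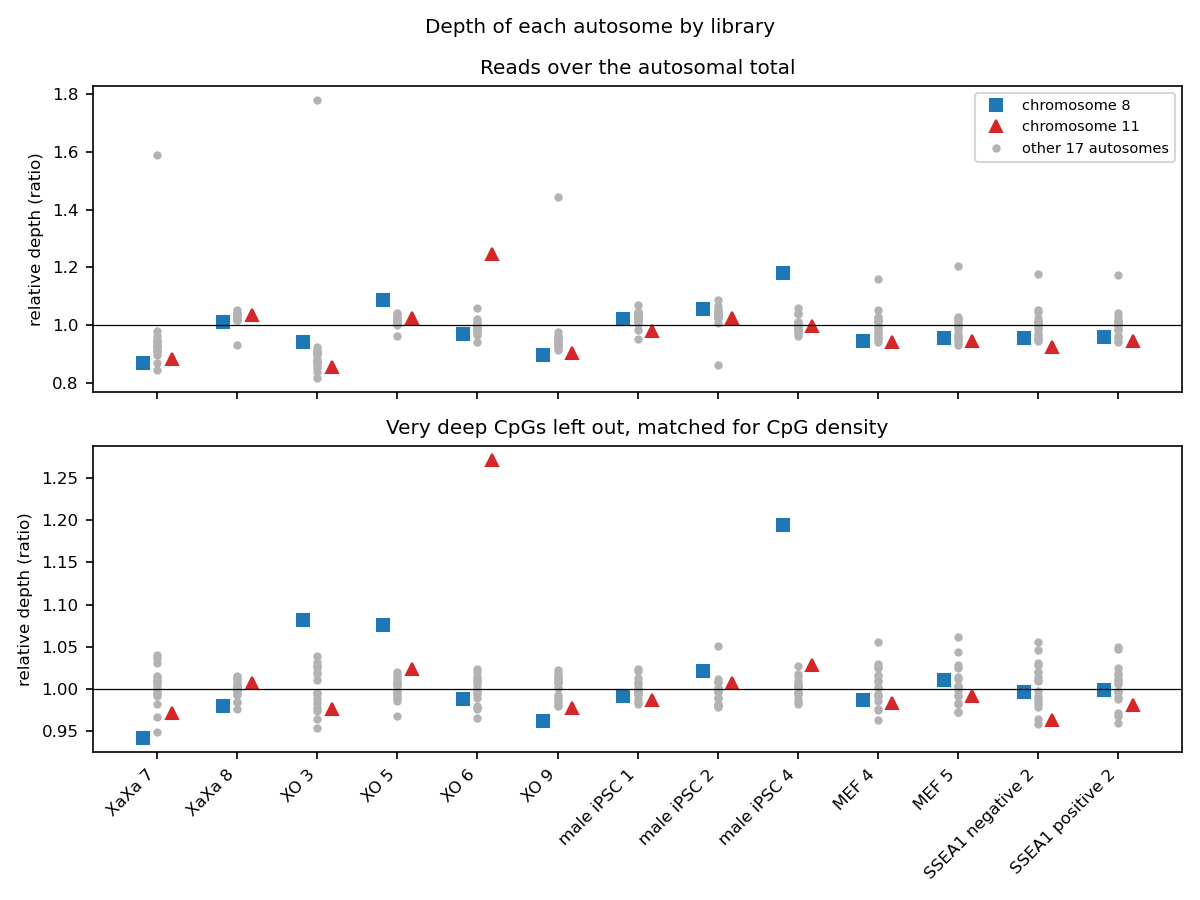
Relative depth (ratio, linear axes that do not start at 0) of chromosome 8 (squares), chromosome 11 (triangles) and the other 17 autosomes (grey points) in each of the 13 libraries; upper panel, reads over the autosomal total; lower panel, very deep CpGs left out and depth matched for CpG density. Chromosome 11 of XO 6 (1.27) and chromosome 8 of male iPSC 4 (1.19) stand above every other autosome of their library in the lower panel, and chromosome 8 of XO 3 and XO 5 lies at 1.08.

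The extra depth of chromosome 11 in XO 6 ran along its whole length. The 13 bins of 10 Mb had relative depths of 1.14 to 1.34 with a median of 1.24, and 6 of the 13 were at least 25% above 1, the ratio midway between 2 and 3 copies in all cells (high bins). In that library 3.49% of the 258 autosomal bins were high, and 3 of the 231 bins on the other 17 autosomes. Bins just inside and just outside that threshold were close together, with 1.26 and 1.24 in the bins starting at 100 and 90 Mb. On the matched scale 9 of the 13 bins were high, beside 3.88% of all autosomal bins. Since these counts come from the values that defined the set, nothing is read from them beyond the description. Chromosome 8 of male iPSC 4 was likewise above 1 in every bin, from 1.08 to 1.29, with 2 of its 14 bins high (1.55% of all autosomal bins in that library). In MEF and SSEA1 libraries 0 bins of both chromosomes were high, beside 1.55% to 1.94% of all their autosomal bins.

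**Figure D2:**
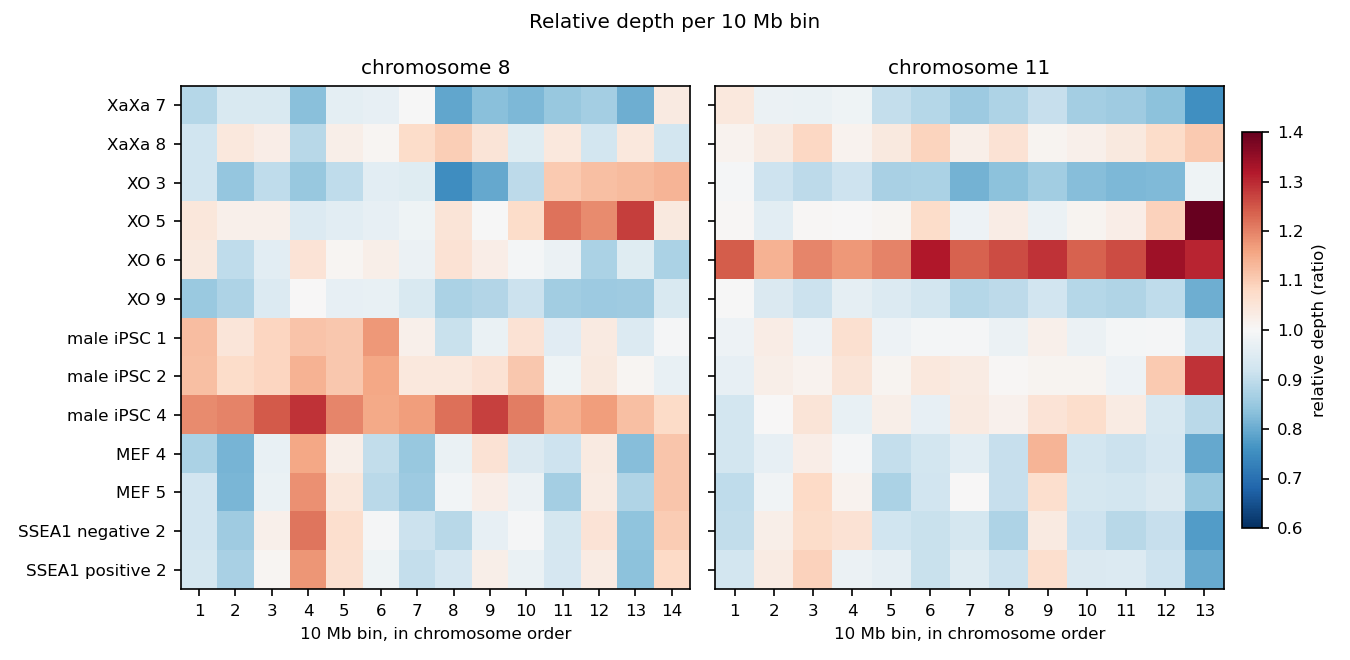
Relative depth (colour, ratio; white is 1) in each 10 Mb bin of chromosome 8 (left) and chromosome 11 (right) for the 13 libraries, with bins numbered from the start of the chromosome. The row of XO 6 is above 1 in all bins of chromosome 11 (1.14 to 1.34) and that of male iPSC 4 in all bins of chromosome 8 (1.08 to 1.29), while bins 11 to 13 of chromosome 8 lie at 1.10 to 1.13 in XO 3 and at 1.19 to 1.28 in XO 5.

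In XO 3 and XO 5 the extra depth was in the distal portion of chromosome 8. In the bins starting at 100, 110, 120 and 130 Mb, XO 5 had relative depths of 1.22, 1.19, 1.28 and 1.04, and its 10 bins before 100 Mb lay between 0.946 and 1.07. XO 3 had 1.10, 1.12, 1.13 and 1.14 in the same distal bins, against 0.752 to 0.958 in the bins before them. Among these bins 1 was high in XO 5 (0.775% of its autosomal bins were) and 0 in XO 3 (0.388%), but on the matched scale all 4 distal bins of XO 3 were, at 1.28 to 1.29 (1.55%). In 1 Mb bins on the matched scale, the single step that best divided chromosome 8 fell at 96 Mb in both libraries. Means before and after it were 0.993 ± 0.092 and 1.26 ± 0.071 in XO 3 (SD over 89 and 36 bins) and 0.950 ± 0.073 and 1.17 ± 0.115 in XO 5. The step held 66.9% of the variance between bins in XO 3 and 57.2% in XO 5, against at most 39.8% and 34.3% on any other autosome of these libraries apart from chromosome 11. In male iPSC 4 the best step held 2.06%, and in the other 6 iPSC libraries 5.05% to 12.6%. Male iPSC 1 also had its best step at 96 Mb, downward by 0.061, in a stretch where 3 of the 9 libraries that make the median are high. The distal profile of XO 5 was not flat, since the 5 bins from 100 to 105 Mb lay at 0.896 to 1.03, and the same bins of male iPSC 4 at 0.934 to 1.10.

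**Figure D3:**
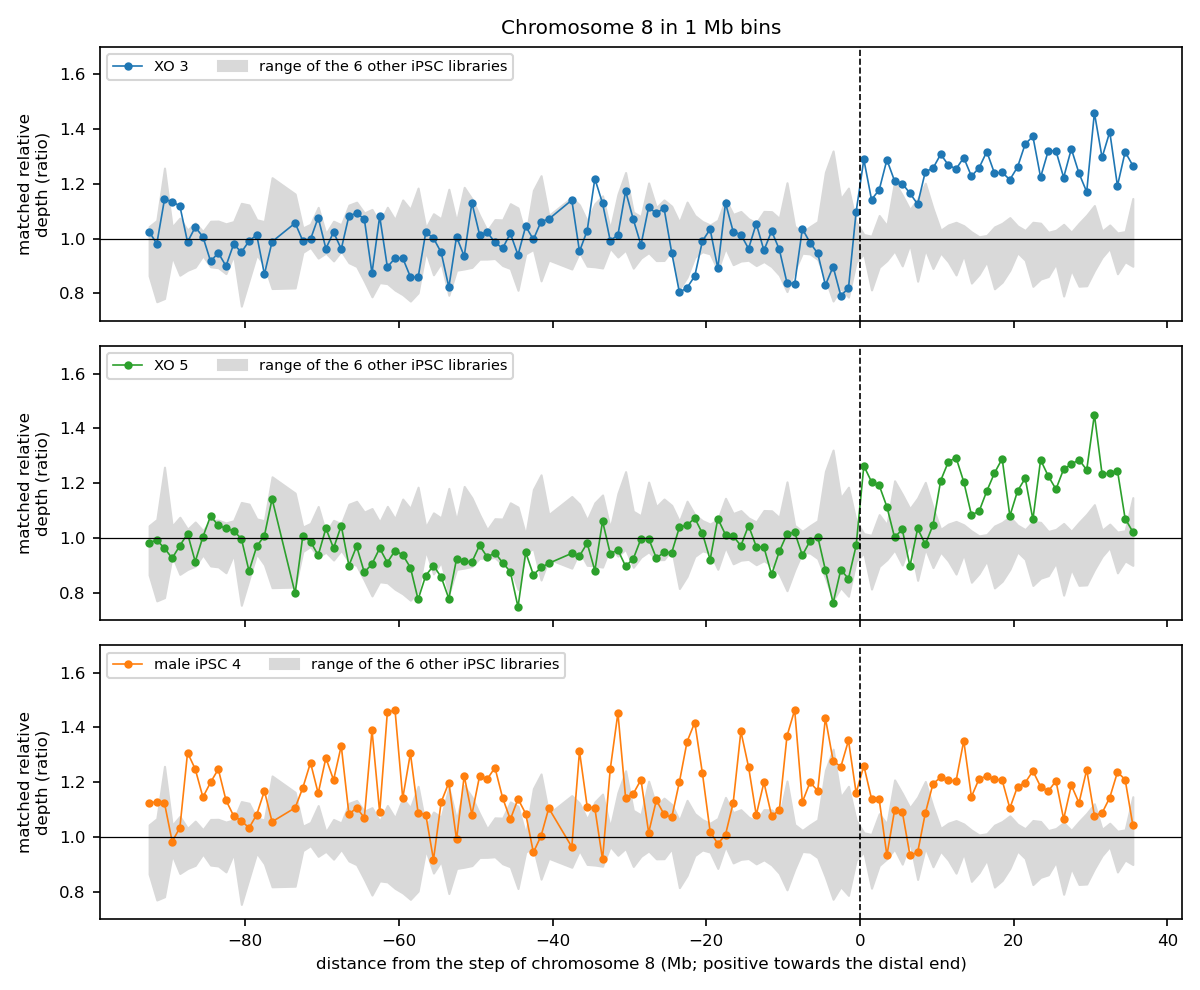
Matched relative depth (ratio, linear axis) of 1 Mb bins of chromosome 8 against distance from the step (Mb, dashed line at 0), for XO 3, XO 5 and male iPSC 4; the grey band is the range of the 6 other iPSC libraries. XO 3 and XO 5 move from means of 0.993 and 0.950 left of the line to 1.26 and 1.17 right of it, and male iPSC 4 is high on both sides.

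Summed over the 73311 CpGs distal to 96 Mb, matched depth was 1.28 in XO 3, 1.24 in XO 5 and 1.18 in male iPSC 4, with 0.930 to 1.02 in the other 6 iPSC libraries and 0.959 to 0.992 in MEF and SSEA1 libraries. Over the proximal 115596 CpGs, male iPSC 4 had 1.23, XO 3 0.968 and XO 5 0.983, and the other iPSC libraries 0.965 to 1.05. Male iPSC 4 was thus high on both sides of 96 Mb, and XO 3 and XO 5 on the distal side alone. Matched promoters of 186 genes lie in the distal stretch, among them that of Mt1, which encodes a metallothionein, a protein that binds metal ions.

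The higher depth was seen in each class of local CpG density and of MEF methylation on the matched scale. Over CpGs with at least 10 reads in every library chromosome 8 of XO 3 from 100 Mb came to 0.631 without matching. Across 5 classes of local CpG density, chromosome 11 of XO 6 ranged from 1.24 to 1.29, distal chromosome 8 from 1.252 to 1.36 in XO 3 and from 1.22 to 1.28 in XO 5, and chromosome 8 of male iPSC 4 from 1.18 to 1.23. In CpGs under 20%, from 20% to 80% and above 80% methylated in MEF, the ranges were 1.255 to 1.31, 1.23 to 1.34, 1.22 to 1.30 and 1.15 to 1.21 in the same order. Reads of both strands gave 1.28 for distal chromosome 8 of XO 3. Chromosome 11 of XO 6 took 1.24 times the usual share of the methylated reads and 1.33 times that of the unmethylated reads, and distal chromosome 8 of XO 3 1.27 and 1.28 times.

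A short stretch near the end of chromosome 11 stood apart in XO 5. The segment from 119700001 to 120600000 (mm9) was set as the longest run of neighbouring high 100 kb bins of chromosome 11 in XO 5. All 9 of its bins were thus high in XO 5 by definition, from 1.30 to 1.73 with a median of 1.60. Outside it but within 2 Mb of its centre, 1 of the 24 bins was high in XO 5. The share of high 100 kb bins over all autosomes was not taken, so counts of these bins are a description only. Over the 5627 CpGs of this segment, XO 5 had a matched depth of 1.58, male iPSC 2 of 1.34, XO 3 of 1.29 and XO 6 of 1.28, against 0.757 to 0.878 in the other 5 iPSC libraries and 0.794 to 0.880 in MEF and SSEA1 libraries. On the first scale, without matching, these values were 1.56 in XO 5, 1.30 in male iPSC 2, 1.08 in XO 3 and 1.26 in XO 6, and 1.05 in XaXa 8. XO 3 thus stood apart from XaXa 8 on the matched scale but hardly on the first. Each iPSC library is left out of its own reference, and 4 of 9 were raised on the matched scale. The reference of the 5 low iPSC libraries thus lies between low and raised libraries, and that of the 4 raised ones among low libraries. Ratios of low and raised iPSC libraries are therefore not over the same reference, which widens the gap between them. The CpGs within 1 Mb on both sides had 1.09 in XO 5, 0.986 in XO 3 and 1.06 in male iPSC 2, whereas XO 6 had 1.33 there, as on the whole chromosome. In XO 3 the bins of the segment ranged from 1.16 to 1.43. In male iPSC 2 they ranged from 1.02 to 1.80, with 2 of 9 high and a median of 1.13.

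**Figure D4:**
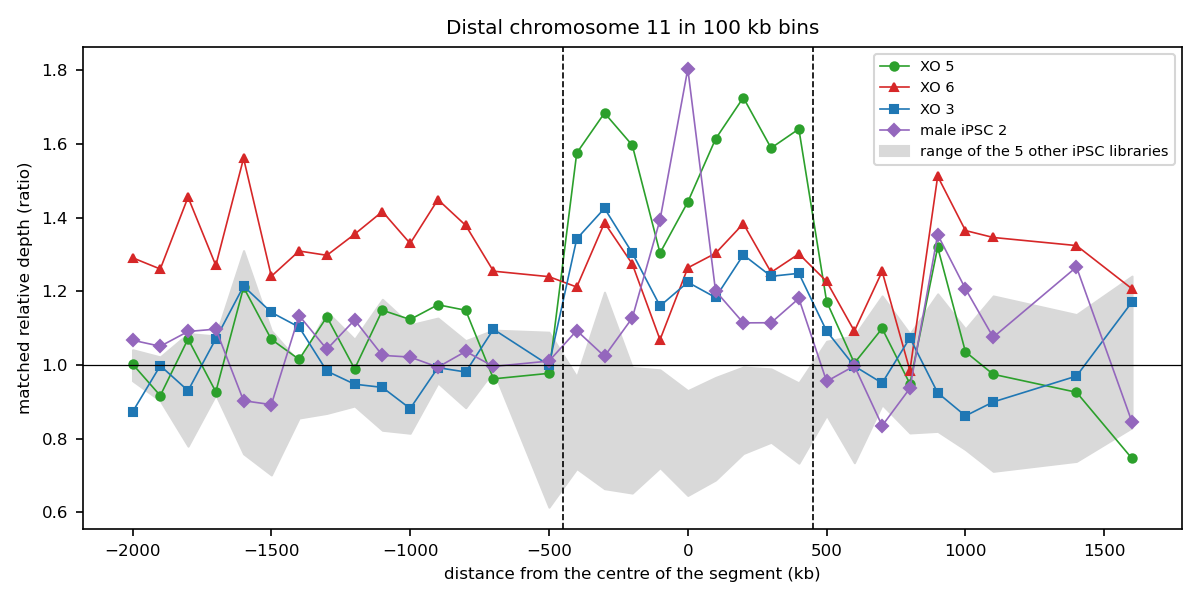
Matched relative depth (ratio, linear axis) of 100 kb bins of distal chromosome 11 against distance from the centre of the segment (kb), for XO 5, XO 6, XO 3 and male iPSC 2; the grey band is the range of the 5 other iPSC libraries and the dashed lines are the ends of the segment. XO 5 lies at 1.30 to 1.73 between the lines and near 1 on both sides, XO 3 at 1.16 to 1.43 between them, and XO 6 is high throughout.

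The segment holds the matched promoters of 24 genes. They include Baiap2, Actg1, encoding a cytoplasmic actin, Arhgdia, P4hb, Rac3, Sirt7, a nuclear deacetylase gene, Alyref, an mRNA export factor gene, Anapc11, encoding a subunit of the anaphase-promoting complex, and Mafg, a small MAF transcription factor gene. At the 28 matched promoters with a value, 27 were above 1 in XO 5, which restates how the segment was set. In XO 6 22 were above 1, in XO 3 21 and in XaXa 8 17. Male iPSC 2 had 10 above 1 and a median of 0.869, although its summed depth over the segment was raised. The remaining libraries had 3 to 14 each. The share of promoters above 1 outside the segment was not taken, so these counts are a description only. Single promoters varied widely: Rac3 had 1.65 in XO 5 and 1.32 in XO 3, against 0.550 in XaXa 8 and 0.650 in male iPSC 4, but 2.16 in MEF 4. Most of these promoters were close to unmethylated. Levels above 20% occurred at Actg1 (24.2% in XO 3), 0610009L18Rik (30.8% in XO 3 and 27.5% in male iPSC 1), Aspscr1 (20.8% in MEF 5, 24 reads) and Cep131 (77.8% in MEF 4, 9 reads).

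The second question was whether methylation on these chromosomes differed from that of the other autosomes. The measures were the level over all pooled reads and the mean level over the 1066 CpGs of chromosome 8 and 1271 of chromosome 11 with at least 10 reads in all 13 libraries (common CpGs). Chromosome 11 was below the other autosomes in every library on both measures. Over common CpGs the difference was -6.22 and -5.34 points in the XaXa libraries, -9.07, -8.48, -9.11 and -9.12 in the XO libraries, -8.83, -8.99 and -9.74 in the male iPSC libraries and -6.50 and -6.64 in the MEF libraries. Over common CpGs it was the lowest or second lowest autosome in all 13 libraries. Over pooled reads it was the third lowest in MEF 5 and SSEA1 negative 2. Chromosome 11 also held the second highest share of CpGs in the densest class, 14.5%, although it held 1.02% of its common CpGs in that class. With the other autosomes weighted to the same density classes, chromosome 11 was still below them in all 13 libraries, with differences of -8.37 to -4.43 points. XO 6, the library with extra depth along chromosome 11, lay at 47.6% on chromosome 11 and 56.7% on the other autosomes, a difference of -9.11 points that is inside the range of the 3 other XO libraries (-9.12 to -8.48). On pooled reads its -11.4 points were also inside theirs (-13.3 to -9.05). Without very deep CpGs, however, XO 6 had -9.15 points, below the other XO libraries (-7.71 to -6.87) and above male iPSC 4 (-9.38), whose chromosome 11 had a matched depth of 1.03. With depth capped at 200 reads per CpG it had -8.88 points, against -7.32 to -6.73 in the other XO libraries. With density weighting it had -8.37, the lowest of the 13 libraries, against -7.69 to -6.14 in the other XO libraries and -7.80 in male iPSC 4. Whether XO 6 lies inside the range of the other XO libraries thus depends on the measure. Except for the common-CpG mean, these measures take in CpGs that not every library read. XO 6 read 143834 CpGs of chromosome 11, against 76570 to 118633 in the other XO libraries. Male iPSC 4 read 146225, against 102569 and 87983 in male iPSC 1 and 2. Whether these numbers bear on the differences was not tested.

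Chromosome 8 gave a different sign on each measure. Over common CpGs it was above the other autosomes, by 1.82 to 4.32 points in all 13 libraries, and over pooled reads it was below them, with differences of -5.71 to -0.720 points. Without very deep CpGs the difference was between -0.926 and 0.822 points. Male iPSC 4, with extra depth along chromosome 8, had 4.10 points over common CpGs, beside 4.17 and 4.32 in the other male iPSC libraries, and -2.43 points over pooled reads, beside -0.884 and -0.720. Distal to 96 Mb, XO 3 and XO 5 had 5.22 and 4.71 points over common CpGs, within the 4.37 and 6.17 points of XO 6 and XO 9. In the chromosome 11 segment, over only 21 common CpGs, XO 5 lay at -11.0 points and XO 3 at -13.4, beside -12.0 in XO 6, -10.3 in XO 9 and -13.6 to -12.3 in the male iPSC libraries. In all 4 regions the common-CpG difference of each library with extra depth lay within the range of the XO and male iPSC libraries without it. Other measures differed. Without very deep CpGs, XO 5, XO 3 and XO 6 had -15.2, -15.5 and -16.1 points in the segment, and male iPSC 2 -17.5. XO 9, male iPSC 1 and male iPSC 4 had -16.8, -16.6 and -19.1 there. On chromosome 8 male iPSC 4 had -0.561 points without very deep CpGs, the lowest of the iPSC libraries. That library read 126213 CpGs of chromosome 8, against 87699 and 75814 in male iPSC 1 and 2.

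**Figure D5:**
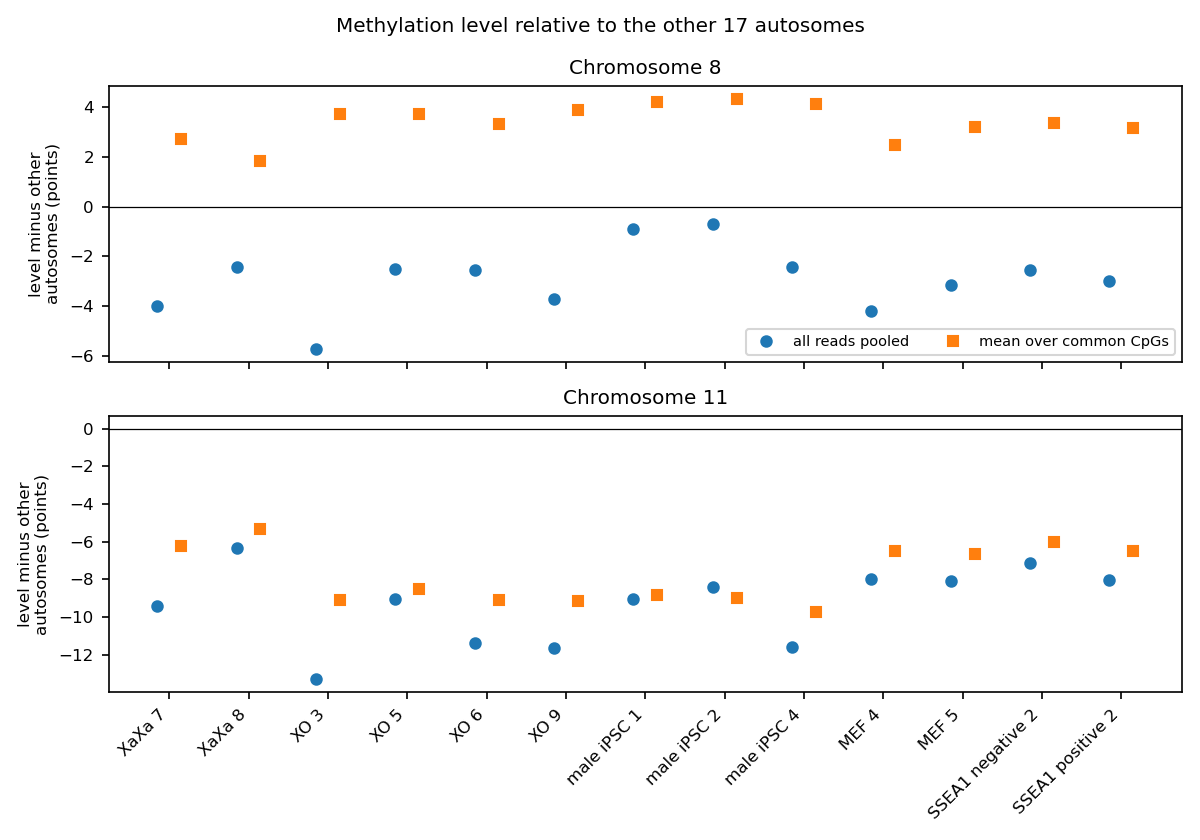
Methylation level of chromosome 8 (upper panel) and chromosome 11 (lower panel) minus that of the other 17 autosomes (percentage points) in each of the 13 libraries, from all reads pooled (circles) and as a mean over common CpGs (squares). Over common CpGs XO 6 (-9.11) lies between XO libraries on chromosome 11 and male iPSC 4 (4.10) just below the other male iPSC libraries (4.17 and 4.32) on chromosome 8, and the sign for chromosome 8 depends on the measure.

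Between labelled groups, the pooled level of chromosome 11 minus the other autosomes was -7.87 ± 2.17 points in XaXa and -11.3 ± 1.75 in XO libraries (SD, n = 2 and 4), a difference of 3.46 points between overlapping groups. As a ratio of levels the direction turned, with 0.776 in XaXa and 0.798 in XO. Over common CpGs the XaXa libraries were nearer to the other autosomes in points than all XO and male iPSC libraries, at -5.78 ± 0.619 against -8.95 ± 0.311 and -9.18 ± 0.485 points (SD, n = 2, 4 and 3). Their ratios over the same CpGs were 0.830 in XaXa, 0.839 in XO and 0.833 in male iPSC libraries, with overlapping groups. The gap in points was thus not seen relative to the lower level of the XaXa libraries. For chromosome 8, pooled differences were -3.21 ± 1.08 points in XaXa, -3.61 ± 1.51 in XO, -1.34 ± 0.943 in male iPSC and -3.67 ± 0.749 in MEF libraries. XO minus male iPSC libraries came to -2.27 points without overlap, to -0.552 points over common CpGs, and to -0.356 points with overlapping groups once very deep CpGs were left out. Male iPSC minus MEF libraries came to 2.33 points for chromosome 8 and -1.66 points for chromosome 11.

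At finer scale, 1 kb tiles with at least 3 common CpGs were compared with a quasi-binomial model over 1352 tiles and 11 libraries, and calls needed 10 points of difference besides a Benjamini-Hochberg adjusted p below 0.05. For XaXa against XO libraries, 53.8% of all tiles were called lower in XaXa and 0% higher. On chromosome 8, 40 of 64 tiles were lower, with a median difference of -23.6 points, and on chromosome 11 35 of 92, with a median of -4.21, beside -15.8 over all tiles. Against male iPSC libraries, where 51% of all tiles were lower and 0.074% higher in XaXa, 39 tiles of chromosome 8 and 34 of chromosome 11 were lower and 1 of chromosome 11 was higher. Without XaXa 8 the 34 became 22. For XO against male iPSC libraries, 0.148% of all tiles were lower and 0.37% higher, and 0 of the tiles of both chromosomes were called. In the same model 12 tiles on each chromosome had an unadjusted p under 0.05, beside 200 of all 1352 tiles. Limma on log ratios also called 0 on both chromosomes. For male iPSC against MEF libraries, 19.2% of all tiles were lower and 3.11% higher, with 9 lower and 3 higher on chromosome 8 and 20 lower and 3 higher on chromosome 11. Without MEF 5 the 9 and the 20 became 5 and 12, without MEF 4 the 3 higher on chromosome 11 became 1, and without male iPSC 4 the 3 on chromosome 8 became 1.

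The tiles with the largest differences were few CpGs each, and the nearest matched promoter is named where it lies within 10 kb, although a nearer gene may have gone unmatched. On distal chromosome 8, the 3 CpGs at 117814246 to 117814272 (mm9) had levels of 44.7% and 32.3% in XaXa libraries, against 90.0%, 77.5%, 76.0% and 88.1% in XO libraries. The groups did not overlap, and the difference of -44.4 points had an adjusted p of 2.28e-05 in the quasi-binomial model. The same tile stood at 76.8%, 88.9% and 77.2% in male iPSC libraries, against 33.3% and 24.9% in MEF libraries, a difference of 51.9 points (adjusted p = 0.000179). XaXa libraries therefore lay near the MEF level at these CpGs and the single-X iPSC libraries above it.

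The 4 CpGs at 8762471 to 8762510 of chromosome 8 had 14.04% and 9.47% in XaXa, against 59.4%, 75.0% and 74.1% in male iPSC libraries, a difference of -57.7 points (adjusted p = 4.69e-06, quasi-binomial). On chromosome 11, the 3 CpGs at 34172012 to 34172671 had 49.0% and 47.3% in XaXa libraries, against 78.8%, 80.8%, 78.4% and 91.2% in XO and 84.6%, 89.6% and 80.3% in male iPSC libraries. All 7 single-X libraries were above both XaXa libraries there. A tile 2530 bases from the matched promoter of Tsen54, a tRNA splicing endonuclease subunit gene, at 115673264 to 115673304, had 35.0% and 20.7% in XaXa, against 74.3%, 56.6%, 68.2% and 51.4% in XO libraries.

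The 1 tile higher in XaXa than in male iPSC libraries, at 96147493 to 96147866 of chromosome 11, had 15.1% and 12.1% in XaXa, against 2.92%, 1.39% and 2.20% in male iPSC libraries (11.4 points, adjusted p = 0.00688 in the quasi-binomial model). Its call was lost without XaXa 7, without XaXa 8 or without male iPSC 4. XO libraries covered a wide range at this tile, with 22.9% and 16.4% in XO 3 and XO 5 and 5.56% and 5.71% in XO 6 and XO 9. A tile of 12 CpGs at 3093445 to 3093630, 8555 bases from the matched promoter of Eif4enif1, held 1391 to 28296 reads per library. Its levels were 37.2% and 28.7% in XaXa, against 71.7%, 75.3% and 60.2% in male iPSC libraries (adjusted p = 0.0136, quasi-binomial). The XO libraries were divided there, with 42.9% and 48.1% in XO 3 and XO 5 and 77.3% and 73.5% in XO 6 and XO 9.

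The largest difference on either chromosome was between male iPSC and MEF libraries, in 3 CpGs at 106585640 to 106585670 of chromosome 11, with 1.29%, 1.75% and 1.44% in male iPSC, against 95.6% and 90.9% in MEF libraries (adjusted p = 6.83e-07, quasi-binomial). On chromosome 8 the CpGs at 77531732 to 77531767 had 12.6%, 23.3% and 22.0% in male iPSC, against 95.7% and 91.3% in MEF libraries. A tile 4791 bases from the matched promoter of Med9os, at 59766687 to 59766876 of chromosome 11, had 14.6%, 10.5% and 14.6% in male iPSC, against 83.3% and 90.3% in MEF libraries.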

How the data were processed

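Per the submitters' processing notes, BSMAP and the mm9 build were used; the aligner's version is not given in the sources used here. The deposited tables hold, per CpG, the total and methylated read counts of each strand, and a fraction made by the authors that equals methylated over total counts to within 0.0005. Total counts per library ran from 4784488 (XO 9) to 143148634 (XaXa 8). Depth and levels were computed from the counts with Python 3.11.15 and numpy 2.4.6, and tiles with R 4.3.3 and limma 3.58.1 (squeezeVar; dispersion kept at 1 or above). In tests on simulated data the model recovered simulated shifts, in a share that is not given here. The shifts were placed only in tiles of intermediate level with a single fixed spread. Recovery in tiles near either end of the scale was not tested. The matched scale, without very deep CpGs and within classes of local CpG density, was added after seeing the data, as were the 1 Mb step, the 100 kb runs and the promoter matching by CpG spacing, which replaced coordinates because no mm9 annotation was used here. Bins of 10 Mb with under 1000 reads in a library were left out. Tiles named are, per comparison and chromosome, the 3 called with the largest difference in each direction, and only some of them are described, picked after their values were seen. One of them is not reported here. Exact permutation tests of chromosome levels between groups were run but are not given, since levels were part of the choice of chromosomes and no adjusted p could pass at these group sizes. The members and lists were chosen with earlier results of these data known.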

Additional observations from a re-analysis of the deposited data

Results flagged for a closer look

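The 4 XO libraries were the one group large enough for a check of single libraries, and 20 depth and level values were examined. Of these, 2 had a library whose gap to the nearest other exceeded the 95% limit of Dixon's ratio. Chance gives about 1 in 20 for independent values, but these values share regions and reads. Both are values of the kinds, depth and level, by which the chromosomes were chosen, so they restate that choice and support nothing. The matched relative depth of chromosome 11 was 1.27 in XO 6, with 0.976 to 1.02 in the other XO libraries. The common-CpG level of chromosome 11 minus the other autosomes was -8.48 points in XO 5, with -9.12 to -9.07 in the other XO libraries, a gap of under 1 point.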

How the results depend on the processing

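No paired analysis was possible because the groups compared share at most 1 replicate number. The cause of each change below was not tested unless stated. Relative depths kept their direction in every alternative run but 1, distal chromosome 8 (from 100 Mb) of XO 3, which was 0.631 over CpGs with 10 reads in each library, 1.29 with depth capped at 200 reads per CpG and 1.29 on the matched scale, against 1.12. Over the CpGs with 10 reads in each library, XO 6 chromosome 11 was 1.17 and male iPSC 4 chromosome 8 1.41. Leaving out each reference library gave 1.241 to 1.253 for XO 6, 1.164 to 1.198 for male iPSC 4, 1.10 to 1.13 for XO 3 and 1.21 to 1.24 for XO 5. The percentage of bins called was 14.3 for male iPSC 4, and 25.9 with 5 Mb bins, 35.7 at 1.2 and 0 at 1.4. For distal XO 5 it was 25.0, and 42.9 with 5 Mb bins, 50 with 20 Mb bins or at 1.2, and 0 at 1.4. For XO 6 it was 46.2 and 0 at 1.4.

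The XaXa minus XO difference of chromosome 8 (0.403) turned to -1.39 over common CpGs, -0.0841 with capped depth, -0.198 with density weighting and -0.0271 as a ratio, and was -0.364 to 1.17 with single libraries left out (below 0 without XaXa 8 and without XO 3). For chromosome 11, XaXa minus XO was -0.0221 and XaXa minus male iPSC -0.0436 as ratios, and 1.928 to 4.998 and 0.273 to 3.34 points with libraries left out. XO minus male iPSC (-1.66) turned to 0.239 over common CpGs, 0.228 with capped depth and 0.209 without very deep CpGs; leaving out libraries gave -2.619 to -1.001. For chromosome 8 (-2.27) it was -0.552 over common CpGs, -1.06 with density weighting, -0.419 with capped depth, -0.356 without very deep CpGs and -0.0377 as a ratio.

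Tile counts follow how many tiles could be tested. With a minimum of 5 reads, 602 tiles of chromosome 8 and 821 of chromosome 11 were tested (11202 in all). For XaXa against XO 399 of the 602 and 421 of the 821 were lower. There were 372 and 383 lower, 1 and 2 higher for XaXa against male iPSC, and 1 lower and 1 higher on chromosome 8 and 8 higher on chromosome 11 for XO against male iPSC. For male iPSC against MEF there were 123 and 205 lower, 34 and 33 higher. Without XO 9, 274 tiles of chromosome 8 and 370 of chromosome 11 were tested (4922 in all). Of these 185 and 188 were lower for XaXa against XO, and 175 and 168 for XaXa against male iPSC. For XO against male iPSC there were 1 lower and 2 higher on chromosome 8 and 4 higher on chromosome 11. For male iPSC against MEF there were 54 and 84 lower, 14 and 14 higher. With at least 5 CpGs per tile only 9 tiles of chromosome 8 and 8 of chromosome 11 were tested (159 in all). The counts were 1 and 2 lower for both XaXa comparisons and 0 higher for XaXa against male iPSC. For male iPSC against MEF they were 0 and 1 lower, 0 higher. The share called over all tiles was not taken at these settings, so the counts are not set against it. At 20 points the 1 higher tile of XaXa against male iPSC became 0. After subtracting each library's mean autosomal level, 20 and 21 tiles of chromosome 11 were lower in XaXa than in XO and male iPSC, and 5 and 5 (against XO) and 1 and 6 (against male iPSC) tiles of chromosomes 8 and 11 were higher. The subtraction changed only the differences, while the p-values still came from the counts without it. The directions at this setting were therefore not tested. Leaving out single libraries gave, for chromosomes 8 and 11, 32 to 40 and 26 to 41 lower for XaXa against XO. It gave 33 to 40 and 22 to 36 lower, 0 and 0 to 2 higher for XaXa against male iPSC; 0 to 1 lower on chromosome 8 and 0 to 1 higher on chromosome 11 for XO against male iPSC. For male iPSC against MEF it gave 5 to 10 and 12 to 22 lower, 1 to 4 and 1 to 3 higher. A group left with 1 library was assumed to vary like the others.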
